A study of Homo sapiens with 10 samples.

Results

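RNA abundance after 2 h in 200 µM merbarone was compared with that of untreated cells in hTERT RPE-1, a telomerase-immortalised epithelial line derived from human retinal pigment epithelium. The comparison used the 4 libraries of 10 in the series whose labels give these conditions, 2 untreated and 2 treated with merbarone for 2 h. Cells of both groups had been kept for 48 h in DMEM F-12 with 0.1% serum, per the labels' protocols, so both held serum-starved cells. The labels give no vehicle for the untreated libraries, so an effect of the drug's solvent, of handling or of the extra 2 h in culture and an effect of merbarone cannot be told apart. The other 6 libraries (30 min of merbarone or DMSO) were used only in 1 alternative fit and in recovering read numbers and gene lengths from the deposited values. The labels do not say whether the 2 libraries of a group came from separate cultures, and p-values measure only the spread between these libraries, which may be technical.

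Merbarone is a catalytic inhibitor of topoisomerase II, the enzyme that passes one DNA duplex through another to relieve supercoils and to untangle chromosomes. Topoisomerase II acts on the torsion that RNA polymerase II creates ahead of and behind itself, and the series concerns pausing of the polymerase near promoters and supercoiling. In serum-starved cells, immediate-early genes are the first to respond to growth factors and stress, and amino-acid-response genes are those that ATF4 and its partners induce when amino acids run short. The genes of the drug's targets gave values close to the untreated ones. TOP2A, the isoform of dividing cells, measured 12.9 and 9.68 RPKM untreated and 11.5 and 11.5 RPKM treated, and TOP2B, the isoform present in all cells, 2.03 and 1.64 against 1.85 and 1.71 RPKM. The groups overlapped for both, and neither passed the test (limma adjusted p = 0.879 and 0.876).

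The deposited values were RPKM, reads scaled to gene length and library size, and the reads behind them could be recovered as whole numbers. Untreated libraries held 13328950 and 11962092 reads, and merbarone libraries 13696974 and 13043632. Over the 6620 genes whose 4 libraries averaged 1 RPKM or more, log2(RPKM + 1) values correlated at 0.9919 between the untreated libraries, 0.9961 between the merbarone libraries and 0.9719 to 0.9757 between groups (Pearson's r across genes, which are not independent replicates). The first principal component held 78.7% of the variance and separated the groups, and the second held 15.7%. The difference between the 2 untreated libraries ran with the GC content of genes (Spearman correlation 0.72 across 6496 genes), that between the merbarone libraries less so (0.31), and the treatment difference only weakly (-0.16). Of 22 retinal pigment epithelium markers in the tables, KRT18 (63.1 RPKM over the 4 libraries), BSG (52.2), BEST1 (18.6) and OTX2 (3.93) were present. KRT18 and BEST1 each overlap another annotated gene, so their values are uncertain. Of the same markers 8 were under 0.1 RPKM, among them RPE65 (0.0387), RLBP1 (0.0281) and TYR (9.30e-04). The summed level of these 22 genes was 172 to 189 RPKM untreated and 178 to 195 RPKM treated. The 12 fibroblast markers summed to 819 to 822 RPKM untreated and 734 to 742 RPKM treated, most of it VIM (699). Of these 12 markers 6 reached 1 RPKM, among them THY1 (66.1), PDGFRB, COL1A1 and FAP. Another 4 were under 0.1 RPKM, among them COL1A2 (0.00222). The 9 endothelial and immune markers summed to 21.1 to 21.3 RPKM untreated and 17.5 to 19.2 RPKM treated. Nearly all of that was CD68 (19.6), with CDH5, CD3E and MS4A1 at 0.

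Of the 6620 genes tested, 866 (13.1%) passed an adjusted p of 0.05 in limma, 396 higher (5.98%) and 470 lower (7.10%) after merbarone, and 2070 had an unadjusted p under 0.05. Rises were larger than falls: 64 genes rose by at least 1 on the log2(RPKM + 1) scale and 5 fell by that much, with a median change of 0.48 among the rises and -0.41 among the falls. Over all genes tested the median difference was -0.05. Genes outside the immediate-early and amino-acid lists made up most of both sets, 352 of the rises and 468 of the falls. These lists held only 33 and 39 tested genes, so genes outside them can still belong to the same responses. The number of calls changed with each library left out. A fit without 1 library keeps 1 library in that group, so the spread between replicates comes only from the other group. Without a merbarone library this is the untreated pair, whose values correlated less (0.9919 against 0.9961 for the merbarone pair). A call lost in such a fit, here and below, therefore need not rest on the values of the library left out. Among the 141 called genes that the naming rule selected, 82 of 140 kept the call without merbarone library 1 and 90 of 139 without merbarone library 2, while 140 of 140 and 138 of 139 kept it without untreated library 1 or 2.

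**Figure D1:**
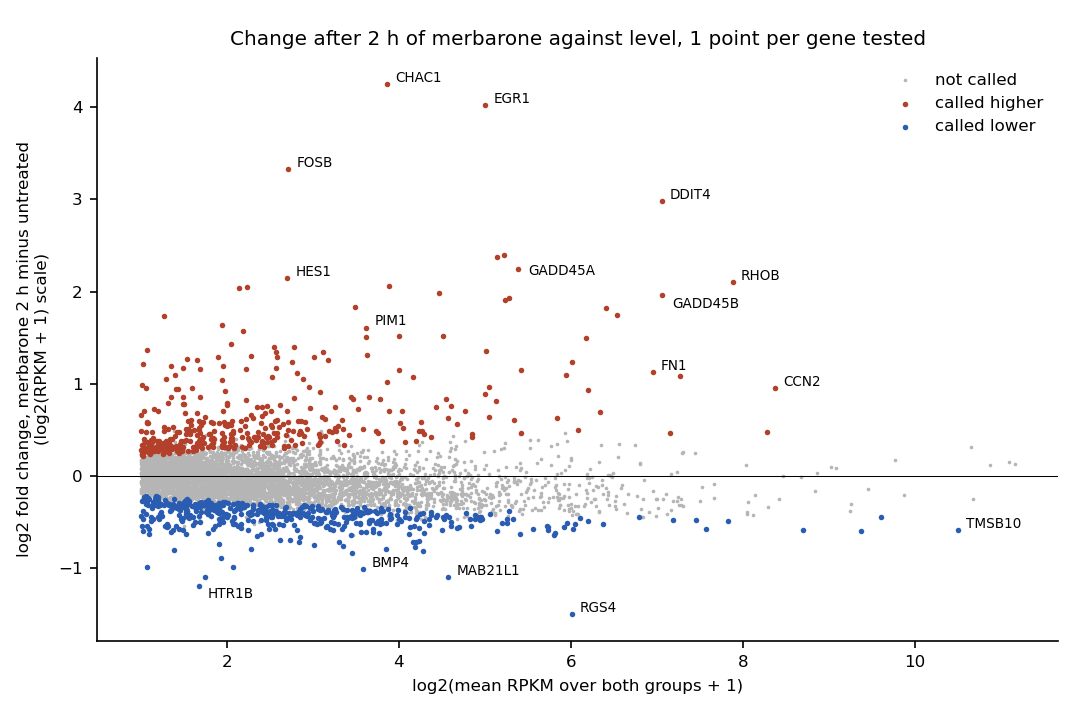
Change against level for the 6620 genes tested, 1 point per gene, with log2(mean RPKM + 1) on the x axis and the log2 fold change (merbarone minus untreated, log2(RPKM + 1) scale) on the y axis. Red points are the 396 genes called higher and blue points the 470 called lower (limma); rises reach 4.25 (CHAC1) and falls -1.5 (RGS4).

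RPKM here divides reads mostly by the whole genomic span of a gene, introns included, so many genes with long introns fell under the 1 RPKM minimum. The same comparison on recovered reads (limma's voom, at least 10 reads on average) covered 13441 genes and called 2079 (15.5%), 1187 higher (8.83%) and 892 lower (6.64%). It called 373 of the 396 rises and 438 of the 470 falls in the same direction. Of 6822 genes that this count alone could test, 684 were higher and 210 lower, and their median length behind the RPKM was 66998 bp against 17226 bp for the genes tested on RPKM. The share of calls that were higher was 45.7% on RPKM, 57.1% on reads and 56.2% after the dependence on transcript length was removed.

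Short transcripts fell more often than long ones. With tested genes in 5 groups of near-equal size by longest transcript, 13% of the shortest group (42 to 1938 bp) were lower and 4.53% higher, with a median of -0.16. In the longest group (5351 to 24020 bp), 2.54% were lower and 7.25% higher, with a median of 0.02. On reads the shares ran from 12.8% lower and 5.71% higher to 3.10% lower and 13.3% higher. The treatment difference correlated with transcript length across genes (Spearman correlation 0.3), and so did the difference between replicates, at -0.35 for untreated library 2 minus 1 and -0.27 for merbarone library 2 minus 1. The part of RNA quality or library preparation in this trend was not tested.

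**Figure D2:**
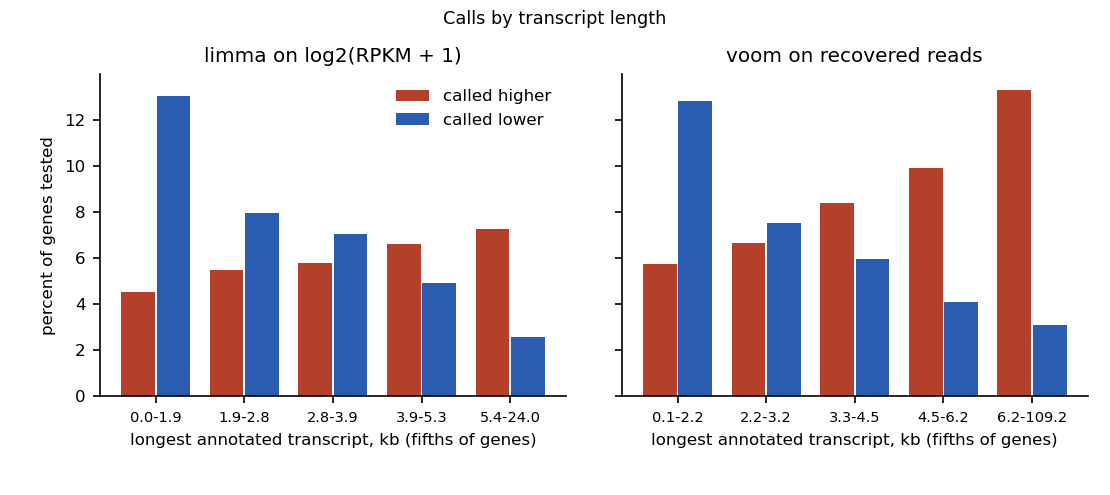
Percent of tested genes called higher (red) and lower (blue) in 5 groups of near-equal size by the length of the longest annotated transcript, in kilobases, on RPKM (left) and on recovered reads (right). The share called lower drops from 13% to 2.54% on RPKM and from 12.8% to 3.10% on reads as transcripts lengthen.

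Outside the immediate-early and amino-acid lists, the 4 largest rises were those of GADD45A, HES1, RHOB and GADD45B. RHOB, a small GTPase of endosomes and the most abundant of them (ENSG00000143878; GRCh37 chromosome 2, 20646835 to 20649201, plus strand), measured 86.1 and 90.3 RPKM untreated and 401 and 361 RPKM after merbarone, from 2716 and 2555 to 12984 and 11142 reads. Its log2 fold change was 2.10 ± 0.12 (SE; limma adjusted p = 1.54e-05). GADD45A, a stress-induced cell cycle inhibitor and p53 target (ENSG00000116717; chromosome 1, 68150884 to 68154017, plus strand), went from 13.2 and 13.6 to 59.5 and 76.5 RPKM, a log2 fold change of 2.25 ± 0.13 (SE; limma adjusted p = 1.74e-05). Its relative GADD45B (ENSG00000099860; chromosome 19, 2476120 to 2478257, plus strand) went from 45.8 and 62.1 to 222 and 201 RPKM (1.96 ± 0.15). HES1, the repressor that Notch induces (ENSG00000114315; chromosome 3, 193853937 to 193856521, plus strand), went from 1.39 and 1.36 to 10.5 and 8.65 RPKM, a fold of 6.98 between group means that its log2 fold change of 2.15 ± 0.10 understates through the added 1. In all 4 genes the treated libraries lay far above both untreated ones, and the selection of the largest rises required that they lie above them.

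PIM1, a serine/threonine kinase of survival signalling, went from 4.95 and 5.14 to 16.0 and 19 RPKM, and ETS2, a transcription factor downstream of Ras, from 1.35 and 1.25 to 5.59 and 6.03 RPKM. TIPARP, a target of the aryl hydrocarbon receptor that ADP-ribosylates proteins, went from 2.48 and 1.96 to 7.69 and 7.28 RPKM. CSRNP1, a nuclear protein induced by axin, went from 2.17 and 2.55 to 7.99 and 7.12 RPKM, and RRAD, a Ras-like GTPase, from 0.0568 and 0.232 to 1.29 and 2.82 RPKM. None of these groups overlapped, which the selection of the largest rises required, and the log2 fold changes were between 1.35 (CSRNP1) and 1.61 (PIM1). MSC, a basic helix-loop-helix repressor, rose by 1.51 ± 0.18 from 4.09 and 6.93 to 17.3 and 16.9 RPKM. The antisense RNA SLC25A21-AS1 rose from 1.21 and 1.26 to 4.71 and 5.34 RPKM. MSC and SLC25A21-AS1 each overlap another annotated gene, and use of strand in the counting is not given in the sources used here, so their values are uncertain. Overlaps of this kind held for 309 (35.7%) of the 866 called genes and 42.2% of the genes tested. Not every such gene is marked in the text, for example MAB21L2, PTTG2, CRYAB, TMSB10, MYL6, TUBA1A and TUBA1C.

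**Figure D3:**
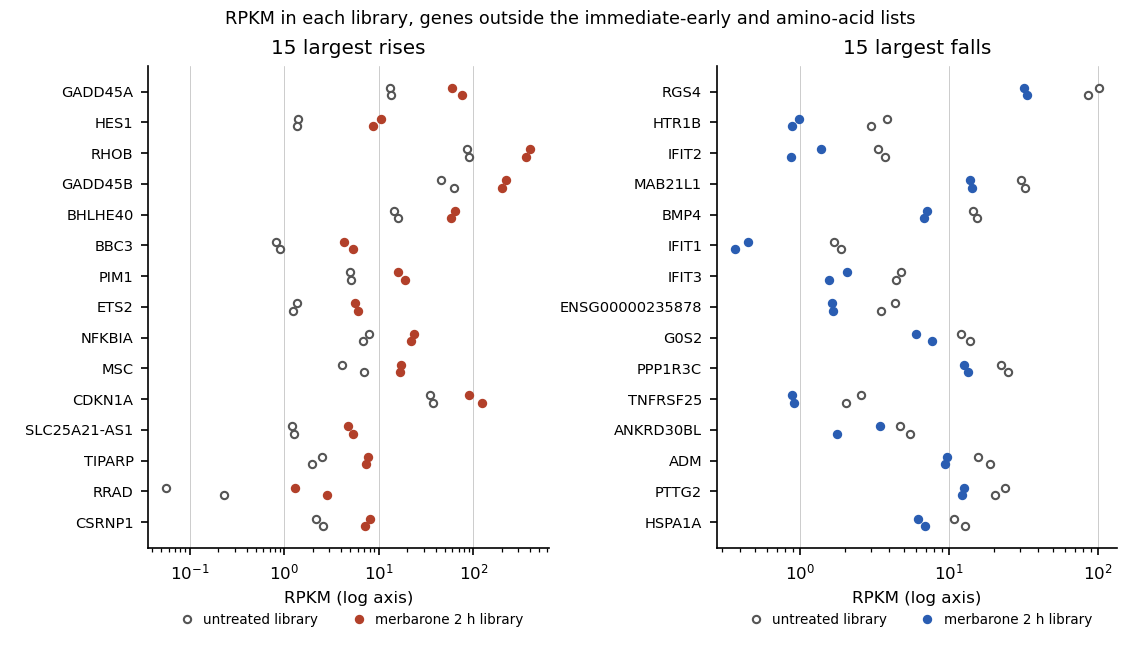
RPKM on a log axis in each of the 2 untreated (open) and 2 merbarone libraries (filled) for the 15 largest rises (left) and 15 largest falls (right) outside the immediate-early and amino-acid lists. The groups do not overlap for any of the 30 genes, which the selection required, and RHOB spans 86.1 to 401 RPKM while RGS4 spans 102 to 31.8 RPKM.

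The 2 lists named above rose in the main. Of 33 immediate-early genes tested, 22 were higher and 2 lower (median 0.93), led by EGR1, a zinc finger factor, from 2.73 and 2.69 to 65.7 and 53.1 RPKM, and FOSB, an AP-1 subunit, from 0.157 and 0.221 to 10.6 and 11.3 RPKM. The 2 members that fell were DUSP6, the phosphatase that ERK signalling induces against itself (6.66 and 6.45 to 4.11 and 3.27 RPKM), and SRF, the factor that drives many of these genes (11.6 and 13.1 to 8.99 and 8.92 RPKM). SRF lost its call without merbarone library 1 (limma adjusted p = 0.187) or 2 (0.178). Of 39 amino-acid-response genes, 22 were higher and 0 lower (median 0.38), led by CHAC1, which degrades glutathione (0.401 and 0.494 to 23.7 and 29.7 RPKM), and DDIT4, an inhibitor of mTORC1 (25.8 and 32 to 214 and 257 RPKM). Without merbarone library 2 the count was 14.

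Promoters of 6 called genes are shown since they hold one of the sites known for CREB and ATF factors within the 250 bases before the annotated start. The CRE, bound by CREB and ATF proteins, was searched as TGACGTCA and the core of the site for ATF4 with C/EBP proteins as TGATGNAA, each on both strands, and each window shown holds a single match. Sequences are RefSeq's (GRCh38.p14), written 5′ to 3′ on the gene's strand, with the match in capitals.
CHAC1: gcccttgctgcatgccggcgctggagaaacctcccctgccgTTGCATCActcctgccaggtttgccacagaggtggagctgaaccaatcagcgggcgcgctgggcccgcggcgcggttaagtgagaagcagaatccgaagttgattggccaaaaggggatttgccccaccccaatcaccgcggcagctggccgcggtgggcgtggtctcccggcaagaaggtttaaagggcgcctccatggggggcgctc
PLK3: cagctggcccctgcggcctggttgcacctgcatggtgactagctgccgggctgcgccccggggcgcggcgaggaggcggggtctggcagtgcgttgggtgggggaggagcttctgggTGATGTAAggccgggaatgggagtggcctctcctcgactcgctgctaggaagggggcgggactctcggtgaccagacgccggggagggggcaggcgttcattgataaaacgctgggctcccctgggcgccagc
PPP1R15A: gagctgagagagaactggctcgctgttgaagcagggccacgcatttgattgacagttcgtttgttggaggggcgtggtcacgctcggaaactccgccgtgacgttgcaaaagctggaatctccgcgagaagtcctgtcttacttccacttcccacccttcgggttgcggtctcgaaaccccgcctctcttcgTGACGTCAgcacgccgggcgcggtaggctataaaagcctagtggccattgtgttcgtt
FN1: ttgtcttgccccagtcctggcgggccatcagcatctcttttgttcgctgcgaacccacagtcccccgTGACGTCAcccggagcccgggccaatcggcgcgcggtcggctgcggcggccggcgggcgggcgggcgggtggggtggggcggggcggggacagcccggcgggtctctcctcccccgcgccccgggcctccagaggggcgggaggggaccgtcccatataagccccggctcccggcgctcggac
HERPUD1: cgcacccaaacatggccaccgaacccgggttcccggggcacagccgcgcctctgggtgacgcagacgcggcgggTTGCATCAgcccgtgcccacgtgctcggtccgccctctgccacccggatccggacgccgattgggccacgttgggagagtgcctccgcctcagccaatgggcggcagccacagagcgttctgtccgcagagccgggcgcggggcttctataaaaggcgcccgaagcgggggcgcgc
ATP5MC1: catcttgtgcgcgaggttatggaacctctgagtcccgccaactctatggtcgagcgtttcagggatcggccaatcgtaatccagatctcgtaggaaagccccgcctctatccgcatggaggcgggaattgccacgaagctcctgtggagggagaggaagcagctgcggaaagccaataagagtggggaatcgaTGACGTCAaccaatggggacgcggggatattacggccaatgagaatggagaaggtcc
The windows are chr15:40953221-40953470 (CHAC1, plus), chr1:44800127-44800376 (PLK3, plus), chr19:48872171-48872420 (PPP1R15A, plus), chr2:215436069-215436318 (FN1, minus), chr16:56931892-56932141 (HERPUD1, plus) and chr17:48892537-48892786 (ATP5MC1, plus). The first base of the match lay 209 bases before the start in CHAC1, 133 in PLK3, 58 in PPP1R15A, 183 in FN1, 176 in HERPUD1 and 57 in ATP5MC1. CHAC1, PLK3 and HERPUD1 carry the ATF4-type letters and the other 3 the CRE. PPP1R15A and FN1 rose and ATP5MC1, a subunit of ATP synthase, fell, so the CRE letters stood before genes of both directions.

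Among genes with a RefSeq window (5226 of the 6620 tested), the CRE letters were in 3.16%, in 5.48% of the 310 called higher and in 3.24% of the 370 called lower, against 1.77% of all 27305 windows in the table. The ATF4-type letters were in 1.19% of tested genes, 2.26% of those higher and 1.89% of those lower. Outside the immediate-early and amino-acid lists the shares among 273 rises were 5.49% for the CRE and 0.733% for the ATF4-type letters. A TATAAA box was in 4.84% of tested genes, in 31 of the 310 higher and in 30 of the 370 lower. The E-box CACGTG was in 9.84%, 10.3% and 9.73%. These shares are descriptions of letters in a window, without a test.

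Targets of p53, the factor that halts the cell cycle and can trigger apoptosis after DNA damage, were higher in 9 of 21 tested and lower in 0 (median 0.29). CDKN1A, the p53-induced inhibitor of cyclin-dependent kinases (ENSG00000124762; chromosome 6, 36644237 to 36655114, plus strand), went from 35.0 and 37.4 to 89.0 and 122 RPKM, a log2 fold change of 1.5 ± 0.15 (SE; limma adjusted p = 3.85e-04). The apoptosis inducers BBC3 (PUMA) and PMAIP1 (NOXA) went from 0.810 and 0.903 to 4.29 and 5.36 RPKM and from 6.18 and 6 to 15.1 and 18.3 RPKM. PLK3 and BTG2, which are also immediate-early genes, rose by 2.06 and 1.83, and AEN, an apoptosis-linked nuclease, by 0.86. MDM2, which marks p53 for degradation and is itself a p53 target, rose by 0.37 ± 0.10 (2.76 and 2.10 to 3.3 and 3.52 RPKM; limma adjusted p = 0.0468). Its call was lost without untreated library 2 (0.0719), merbarone library 1 (0.0902) or merbarone library 2 (0.187), and that of XPC (0.33), a DNA damage sensor of nucleotide excision repair, without merbarone library 2 (0.325). The list's count was 14, 10, 9 and 7 without untreated library 1, untreated library 2, merbarone library 1 and merbarone library 2. On reads 15 of 26 members were higher and 0 lower, adding SESN1 (358 and 227 to 477 and 584 reads), TIGAR and SUSD6.

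The apoptosis list held BBC3 and PMAIP1 as its 2 rises, with 2 of 18 tested higher and 1 lower (median 0.06). The member that fell was CASP6, an executioner caspase, from 1.49 and 1.49 to 1.07 and 1.09 RPKM, a call lost without merbarone library 1 (limma adjusted p = 0.293) or 2 (0.220). Reads gave 6 of 31 higher and 5 lower. Among the latter were APAF1, the scaffold of the apoptosome (897 and 665 to 525 and 435 reads; log2 fold change -0.78 ± 0.13, voom adjusted p = 1.02e-04), and the caspase CASP8 (-0.49). BCL2L11 (BIM), a death-promoting BCL2 relative, was higher by 0.56 and BIRC3, an inhibitor of apoptosis and NF-kB target, by 1.90.

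NF-kB, held in the cytoplasm by inhibitors such as NFKBIA, drives cytokine genes and the genes of its own inhibitors. Of 15 members of this list tested, 8 were higher and 0 lower (median 0.36). NFKBIA (ENSG00000100906; chromosome 14, 35870285 to 35873955, minus strand) went from 7.83 and 6.76 to 23.6 and 21.8 RPKM, a log2 fold change of 1.52 ± 0.11 (SE; limma adjusted p = 5.16e-05). Among secreted factors, the monocyte chemokine CCL2 went from 18.3 and 24.7 to 44.2 and 40.7 RPKM, the neutrophil chemokine CXCL8 from 0.234 and 0.911 to 2.59 and 2.44 RPKM, and IL11 from 1.83 and 3.12 to 5.84 and 9.14 RPKM. NFKBIE, another inhibitor, rose by 0.64. The smaller rises of IRF1 (0.50), NFKB2 (0.37) and TNFAIP2 (0.34) were lost without merbarone library 1 (limma adjusted p = 0.0623 to 0.138), and the last 2 also without merbarone library 2 (0.218 to 0.232). The count was 10, 9, 5 and 6 without untreated library 1, untreated library 2, merbarone library 1 and merbarone library 2. On reads 16 of 24 were higher and 0 lower, adding the feedback inhibitor TNFAIP3 (62 and 67 to 240 and 228 reads), PTGS2, which makes prostaglandins (12 and 22 to 86 and 71 reads), ICAM1, RELB, IL1A and BIRC3.

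Some interferon-stimulated genes fell. Of 19 tested, 0 were higher and 6 lower (median -0.24). IFIT1, IFIT2 and IFIT3, neighbours on chromosome 10 whose products bind viral RNA, were 3 of the 15 largest falls. IFIT1 (ENSG00000185745; 91152303 to 91166244, plus strand) fell from 1.70 and 1.88 to 0.453 and 0.368 RPKM (260 and 258 to 71 and 55 reads), or 0.229 times the untreated mean. IFIT2 (ENSG00000119922) fell from 3.37 and 3.72 to 1.4 and 0.869 RPKM and IFIT3 (ENSG00000119917) from 4.78 and 4.4 to 2.09 and 1.58 RPKM. The groups did not overlap for any of the 3, which their selection among the 15 largest falls required. Their limma adjusted p-values were 3.87e-05 to 4.20e-04. Each overlaps another annotated gene, so their values are uncertain. The ubiquitin-like ISG15 fell from 6.17 and 8.37 to 3.92 and 4.25 RPKM. IFITM1 and the immunoproteasome subunit PSMB8 fell by 0.47 and 0.38, and their calls were lost without merbarone library 1 (limma adjusted p = 0.0783 and 0.301), that of PSMB8 also without merbarone library 2 (0.245). The count was 9 without untreated library 1, 5 without untreated library 2, 4 without merbarone library 1 and 5 without merbarone library 2. On reads 8 of 31 were lower and 0 higher, OAS1 among them (57 and 39 to 23 and 20 reads).

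Several clock genes rose. Of 11 tested, 6 were higher and 0 lower (median 0.36), mostly the repressors of the clock's loop. BHLHE40 (DEC1), which represses CLOCK and BMAL1 targets (ENSG00000134107; chromosome 3, 5021122 to 5027008, plus strand), went from 14.4 and 16.1 to 63.6 and 57.7 RPKM, a log2 fold change of 1.93 ± 0.11 (SE; limma adjusted p = 1.74e-05). NR1D1 (REV-ERB alpha) went from 2.94 and 3.97 to 9.45 and 7.84 RPKM, NFIL3 from 0.851 and 0.790 to 2.37 and 2.61 RPKM and PER1, which serum and stress induce, from 0.533 and 0.568 to 1.5 and 1.4 RPKM. NR1D1, PER1, NR1D2 and BHLHE41 overlap other annotated genes. The rises of BHLHE41 (0.49) and NR1D2 (0.36) were lost without merbarone library 1 (limma adjusted p = 0.280 to 0.422), and that of NR1D2 without untreated library 2 (0.0507). The count was 3 without merbarone library 1 and 5 or 6 without any other library. CRY2, tested on reads alone, was higher by 0.75 ± 0.15 (241 and 189 to 387 and 378 reads).

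Genes of the extracellular matrix, which RPE-1 cells make in quantity, were higher in 7 of 29 tested and lower in 0 (median 0.12). FN1, fibronectin (ENSG00000115414; chromosome 2, 216225163 to 216300796, minus strand), whose promoter is printed above, went from 77.8 and 75 to 179 and 159 RPKM (78511 and 67953 to 185170 and 156854 reads), a log2 fold change of 1.13 ± 0.12 (SE; limma adjusted p = 4.12e-04). The large proteoglycan VCAN went from 8.43 and 7.33 to 16.5 and 13.9 RPKM, FBN1 (fibrillin) from 1.84 and 1.75 to 3.45 and 3.01 RPKM and COL12A1 from 2.72 and 2.78 to 5.37 and 4.50 RPKM. The laminins LAMB1 (0.35) and LAMA4 (0.28) lost their calls without merbarone library 1 (limma adjusted p = 0.336 to 0.391) or 2 (0.0719 to 0.198). The count of rises was 10, 14, 6 and 5 without untreated library 1, untreated library 2, merbarone library 1 and merbarone library 2, and 7 other members were lower without untreated library 1. Many members are long, and 8 were higher after the length correction.

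Genes that TGF-beta induces or that carry its signal were higher in 7 of 19 tested and lower in 1 (median 0.18), including BHLHE40 from above. The brakes of the pathway rose: SMAD7, which blocks the receptor, from 1.28 and 1.56 to 3.04 and 2.71 RPKM, BAMBI, a decoy receptor, from 8.89 and 8.87 to 17 and 16.2 RPKM, and SKIL, a SMAD corepressor, by 0.42. TGFBR2, the type II receptor, fell by 0.28 from 3.28 and 3.17 to 2.53 and 2.44 RPKM. SKIL and TGFBR2 lost their calls without merbarone library 1 (limma adjusted p = 0.216 to 0.329), and TGFBR2 and FSTL3, a secreted activin binder (0.59), without merbarone library 2 (0.0729 to 0.360). In the related BMP list 2 of 8 were higher and 2 lower. BMP4, a morphogen of eye development (ENSG00000125378; chromosome 14, 54416454 to 54425479, minus strand), fell from 14.6 and 15.5 to 7.11 and 6.80 RPKM, a log2 fold change of -1.01 ± 0.09 (SE; limma adjusted p = 2.23e-04). The BMP-inducible genes ID1 and ID3, inhibitors of helix-loop-helix factors, rose from 18.1 and 25.2 to 39.9 and 40.9 RPKM and from 52.4 and 69.2 to 110 and 87.4 RPKM, the latter call lost without merbarone library 1 (limma adjusted p = 0.142).

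Targets of YAP and TEAD, which respond to cell tension and density, were higher in 5 of 19 and lower in 1 (median 0.14). CCN2 (CTGF) and CCN1 (CYR61), matricellular proteins that are also immediate-early genes, went from 215 and 233 to 409 and 462 RPKM and from 254 and 263 to 342 and 379 RPKM. FJX1 fell from 11 and 11.5 to 6.69 and 6.22 RPKM. The smaller rises of CCN1 (0.48), ANKRD1 (0.50) and MYOF (0.45) were lost without merbarone library 1 (limma adjusted p = 0.0712 to 0.127) or 2 (0.0591 to 0.299). The count of rises was 9, 6, 2 and 2 without untreated library 1, untreated library 2, merbarone library 1 and merbarone library 2, and on reads 12 of 26 were higher and 2 lower.

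Receptor signalling genes changed in both directions. On the log2(RPKM + 1) scale the largest fall among the genes tested was that of RGS4, which shortens signals of Gq- and Gi-coupled receptors (ENSG00000117152; chromosome 1, 163038565 to 163046592, plus strand), from 102 and 86.5 to 31.8 and 33.3 RPKM. Its reads went from 10902 and 8309 to 3494 and 3487, and its log2 fold change was -1.5 ± 0.12 (SE; limma adjusted p = 9.32e-05). HTR1B, a serotonin receptor coupled to Gi (ENSG00000135312; chromosome 6, 78170641 to 78173208, minus strand), fell from 3.84 and 3.03 to 0.994 and 0.894 RPKM. As a ratio of group means its fall, to 0.275 times the untreated level, was deeper than that of RGS4 (0.345). RGS2, a relative of RGS4, rose instead, from 0.835 and 0.517 to 2.93 and 2.20 RPKM, and so did the vasoconstrictor peptide EDN1, from 0.582 and 0.587 to 2.36 and 2.21 RPKM. With GNG11, a G-protein gamma subunit (-0.48; limma adjusted p = 0.121 without merbarone library 1 and 0.116 without 2), the list held 2 rises and 3 falls among 14 tested (median -0.09).

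In the EGF receptor list 2 of 11 were higher and 1 lower (median -0.10). The ligand HBEGF went from 1.2 and 1.10 to 3.61 and 4.97 RPKM, a log2 fold change of 1.29 ± 0.12 (SE; limma adjusted p = 1.85e-04), and ERRFI1 (MIG6), an inhibitor of the receptor, from 4.20 and 3.68 to 6.72 and 7.4 RPKM. The member that fell was DUSP6. On reads EGFR itself was higher by 0.59 ± 0.11 (2631 and 2076 to 3943 and 3534 reads), while the ERK-induced inhibitor SPRY1 and the ERK-induced factor ETV4 were lower by 0.81 and 0.62. In the Notch and Wnt list 3 of 14 were higher and 0 lower (median -0.08): HES1, the Notch ligand JAG1 (1.4 and 1.41 to 2.08 and 2.20 RPKM) and the Wnt receptor FZD7 (6.25 and 6.69 to 8.46 and 9.77 RPKM). JAG1 and FZD7 lost their calls without merbarone library 2 (limma adjusted p = 0.0812 and 0.271). NOTCH1 and LFNG, which modifies Notch, were higher on reads by 0.80 and 1.62.

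Genes of development, mostly transcription factors, changed in both directions, 7 of 19 tested higher and 8 lower (median -0.14). Genes of eye and head patterning were among the falls. MAB21L1 (ENSG00000180660; chromosome 13, 36047556 to 36052901, minus strand), needed for the lens and retina and overlapping another annotated gene, fell from 30.5 and 32.5 to 13.9 and 14.4 RPKM, a log2 fold change of -1.10 ± 0.10 (SE; limma adjusted p = 2.12e-04), and its relative MAB21L2 from 37.2 and 45.6 to 27 and 26.7 RPKM. The homeobox genes SIX4 (-0.59) and SIX3 (-0.44), the Iroquois gene IRX3 (-0.45), PBX2 (-0.38) and OTX2 (-0.32), a specifier of pigment epithelium, fell as well. Genes known from mesenchyme and neural crest rose: SNAI1 from 1.66 and 1.93 to 6.5 and 5.29 RPKM, SNAI2 by 0.76, FOXC1 from 1.83 and 1.60 to 4.15 and 4.14 RPKM, FOXC2 by 0.71 and SOX4 by 0.84. FOXL1, a forkhead factor, rose by 0.31. Without merbarone library 1 the count of falls was 4 and without merbarone library 2 it was 3, against 6 rises in both. MAB21L2, PBX2, SIX3, OTX2 and FOXL1 lost their calls without merbarone library 1 (limma adjusted p = 0.0557 to 0.348), and these and SIX4 without merbarone library 2 (0.0597 to 0.311).

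**Figure D4:**
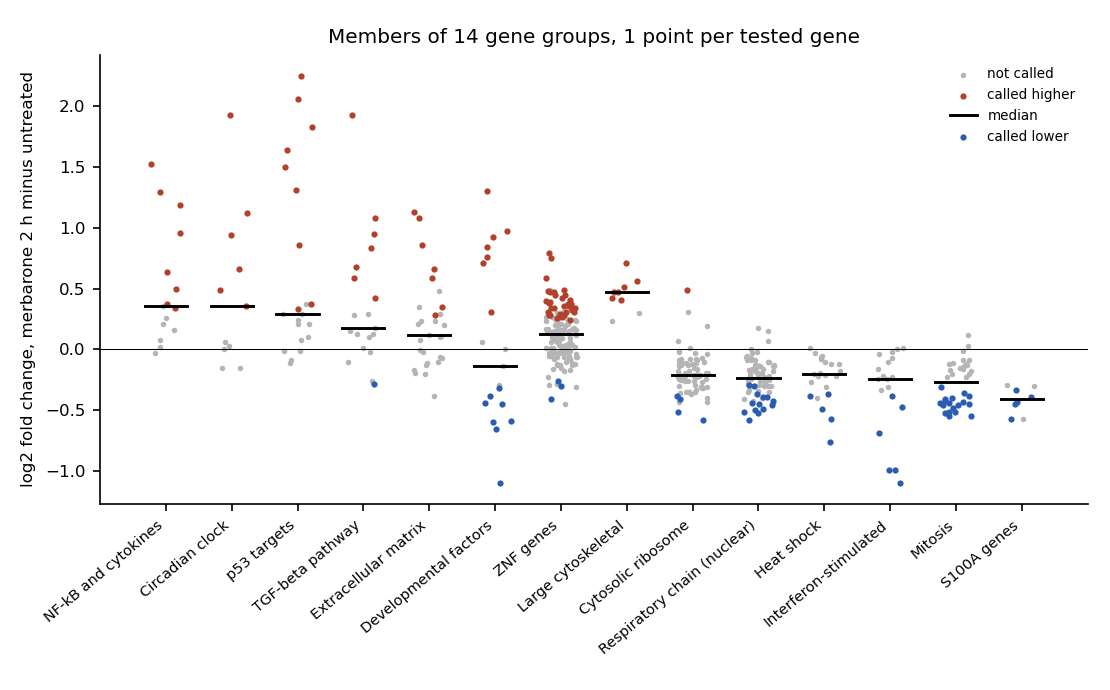
Log2 fold change (merbarone minus untreated, log2(RPKM + 1) scale) of each tested member of 14 gene groups, with the group's median as a black line. Grey points were not called by limma; the medians run from 0.47 for large cytoskeletal proteins to -0.41 for S100A genes, 2 groups that, with the ZNF genes, were picked after values were seen.

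Many genes of mitosis fell. Of 36 tested, 18 were lower and 0 higher (median -0.27), against 7.10% lower over all genes. They included cyclin B2 (CCNB2, 3.69 and 3.53 to 2.49 and 2.26 RPKM), the kinase AURKA (3.63 and 3.34 to 2.38 and 2.30 RPKM), securin (PTTG1, 9.35 and 8.66 to 5.95 and 6.05 RPKM) and CKS2, a partner of cyclin-dependent kinases (10.2 and 8.79 to 6.40 and 5.97 RPKM). The other falls were KIF20A, BIRC5, UBE2C, CDCA3, CCNB1, PLK1, CDCA8, CCNF, CDC25B, CDC20, PRC1, NEK2, DLGAP5 and UBE2S, by 0.31 to 0.55. In this list the treated libraries lay below both untreated ones for each called gene. That is not particular to the list, since it also held for called genes outside it such as SIX3 and MAB21L2. Fewer cells in mitosis and less of these RNAs per cell cannot be told apart in bulk RNA. The count was 18 and 29 without untreated library 1 and 2 but 3 without merbarone library 1 and 3 without merbarone library 2. The lost calls of this list, CCNA2 and FEN1 had limma adjusted p-values of 0.0557 to 0.367 and 0.0629 to 0.218 in those fits. After the length correction it was 17, and on reads 17 of 42.

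Genes of DNA replication and the G1/S transition were lower in 2 of 30 (6.67%), near the 7.10% over all genes. Of these genes 0 were higher, against 5.98% over all genes (median 0.002). CCNA2, cyclin A2, which acts in S phase and mitosis, fell from 14.5 and 11.1 to 8.93 and 8.28 RPKM, and FEN1, the flap nuclease, from 24.4 and 23.4 to 17.1 and 18 RPKM. CCNA2 lost its call without merbarone library 2 and FEN1 without merbarone library 1 or 2. DNA repair genes were higher in 2 of 20 (median 0.02), ERCC1 of nucleotide excision repair from 1.38 and 1.42 to 2.36 and 2.49 RPKM and XPC. Both overlap other annotated genes. ERCC1 spans FOSB on the opposite strand, and ERCC1 went from 1319 and 1217 to 2308 and 2326 reads while FOSB went from 15 and 19 to 1043 and 1056, so the rise of ERCC1 cannot be told apart from reads of FOSB. On reads 9 of 46 repair genes were higher and 0 lower, among them the damage kinases PRKDC (1904 and 1242 to 2882 and 2750 reads; 0.79 ± 0.12, voom adjusted p = 2.56e-05) and ATM (0.41), and BRCA2 (0.72) and PALB2 (0.65) of homologous recombination. Most of these are long genes, a class with 13.3% of genes higher on reads among the longest transcripts.

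**Figure D5:**
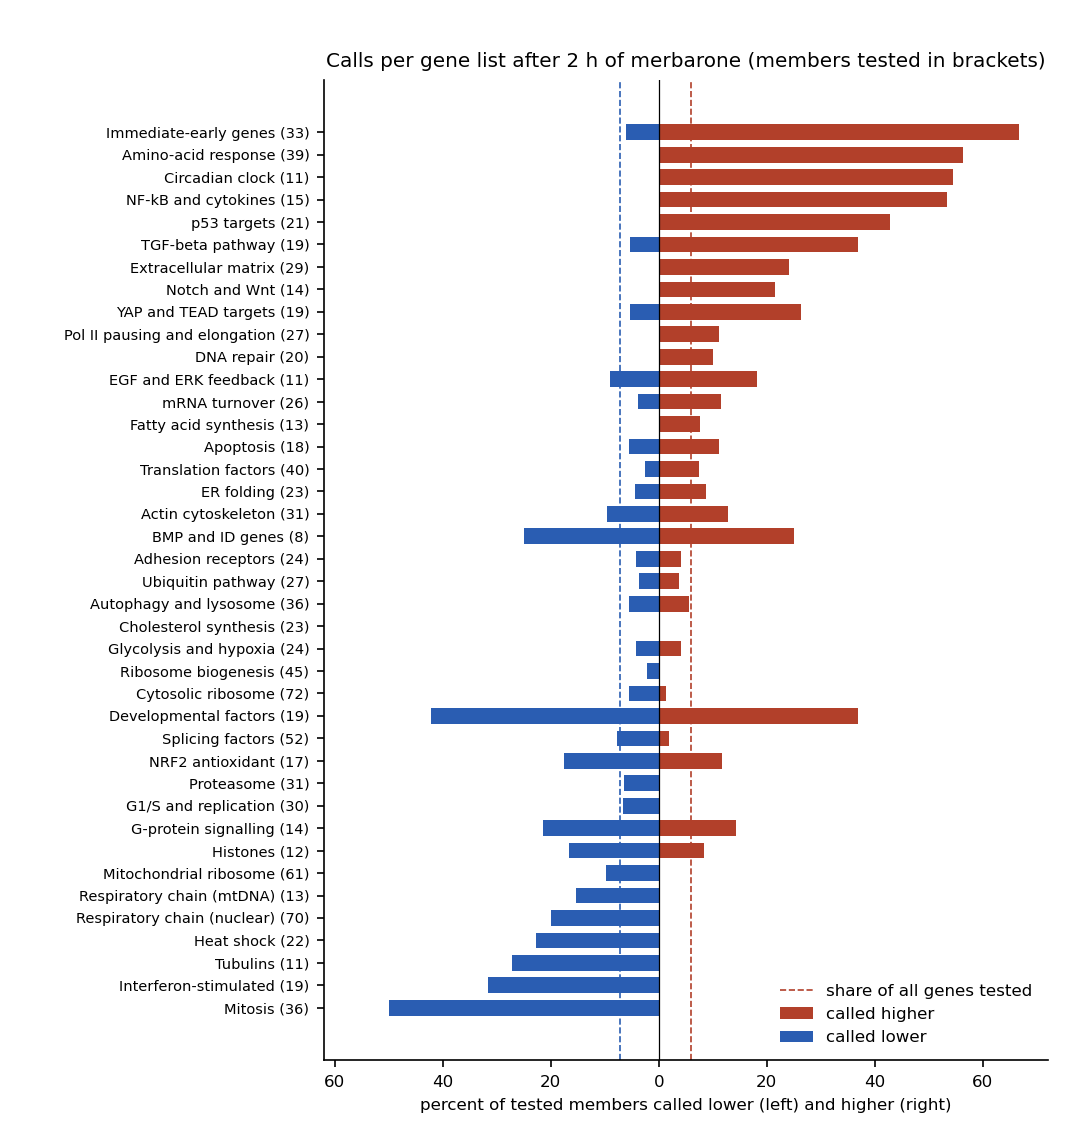
Percent of tested members called lower (blue, left) and higher (red, right) by limma in each of 40 gene lists, ordered by the difference, with members tested in brackets. Dashed lines mark the shares over all genes, 7.10% lower and 5.98% higher; immediate-early genes (22 of 33 higher) stand at one end and mitotic genes (18 of 36 lower) at the other.

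Estimates were negative for 3995 of all 6620 genes tested. Of 70 nuclear genes of the respiratory chain, 14 were lower and 0 higher (median -0.24), and 66 had a negative estimate. The ATP synthase subunits ATP5MC1 (9.90 and 10.2 to 6.11 and 6.71 RPKM) and ATP5MC3 (15.7 and 14.6 to 10.3 and 10.2 RPKM) and the cytochrome oxidase subunits COX7B (8.33 and 8.75 to 5.35 and 6.05 RPKM) and COX6B1 (8.98 and 10.8 to 6.79 and 6.58 RPKM) had the smallest p-values. With the length correction 8 were lower and 1 higher, the median transcript of the list being 1591 bp. The count was 45 and 18 without untreated library 1 and 2, and 0 and 5 without merbarone library 1 and 2. Each of these 4 genes lost its call without merbarone library 1, in a list whose lost calls reached adjusted p-values of 0.0631 to 0.458 there (limma). Of the 13 genes of mitochondrial DNA, MT-ND6 (804 and 786 to 525 and 527 RPKM) and MT-ND5 (943 and 862 to 655 and 664 RPKM) were lower and 0 were higher (median 0.09), and both calls were lost without merbarone library 1 (limma adjusted p = 0.0771 and 0.279) or 2 (0.0599 and 0.197).

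Cytosolic ribosomal proteins gave 4 of 72 lower (5.56%) and 1 higher (1.39%), against 7.10% and 5.98% over all genes, and 67 had a negative estimate (median -0.21). The calls were RPSA (2.56 and 1.98 to 1.15 and 1.22 RPKM), RPS21, RPL10 and RPS26 below and RPL12 above (4.82 and 5.15 to 7.69 and 7.15 RPKM). Ribosomal protein genes have many processed copies in the genome, so the split of reads between copies is uncertain. The count of falls was 44, 5, 1 and 3 without untreated library 1, untreated library 2, merbarone library 1 and merbarone library 2. Mitochondrial ribosomal proteins gave 6 of 61 lower and 0 higher (median -0.14), led by MRPL52 and MRPL51 (82.8 and 86.1 to 56.3 and 63.8 RPKM), with counts of 24, 7, 0 and 1 in the same order. Of 45 ribosome biogenesis genes 1 was lower, RRS1, an assembly factor of the large subunit (21.8 and 22.6 to 14.2 and 12.3 RPKM; -0.70 ± 0.11, limma adjusted p = 0.00435). Of 31 proteasome genes PSMA4 (-0.37) and PSMB5 (-0.34) were lower (6.45%, near the 7.10% over all genes) and 0 were higher. Both calls were lost without merbarone library 1 or 2.

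Heat shock genes, which HSF1 induces when proteins misfold, were lower in 5 of 22 and higher in 0 (median -0.21). The inducible chaperone HSPA1A fell from 10.8 and 12.8 to 6.21 and 6.93 RPKM, a log2 fold change of -0.76 ± 0.11 (SE; limma adjusted p = 0.00329), and HSPA1B from 13.8 and 13.6 to 9.21 and 9.67 RPKM. These 2 genes are near-identical copies whose reads can be split between them, so their single values are uncertain. The constitutive chaperone HSPA8 fell from 222 and 227 to 153 and 151 RPKM, and CRYAB and DNAJA1 by 0.37 and 0.38. HSPA8, HSPA1B, CRYAB and DNAJA1 lost their calls without merbarone library 1 (limma adjusted p = 0.107 to 0.354) or 2 (0.0671 to 0.218), leaving a count of 1 in both cases, against 9 and 8 without untreated library 1 and 2.

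Other stress programmes were mixed. Of 23 genes of ER folding and the unfolded protein response, 2 were higher and 1 lower (median -0.02). HERPUD1, a member of the ER degradation machinery whose promoter is printed above, went from 4.59 and 5.08 to 8.37 and 9.18 RPKM, and XBP1, a factor of the response, from 17 and 18.4 to 28.4 and 27.6 RPKM. ERN1 (IRE1), the sensor that splices XBP1, was higher on reads (101 and 92 to 235 and 206). In the NRF2 list HMOX1, heme oxygenase, rose from 1.51 and 1.82 to 2.62 and 2.87 RPKM and MAFG by 0.38, while the thiol enzymes TXN (7.02 and 7.23 to 4.63 and 4.64 RPKM), PRDX1 (-0.59) and TXNRD1 (-0.42) fell, 2 higher and 3 lower of 17 (median -0.11). MAFG and TXNRD1 lost their calls without merbarone library 1 or 2 and PRDX1 without merbarone library 1 (limma adjusted p = 0.100 to 0.376).

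Among 40 translation factors (median -0.04) 3 were higher (7.50%) and 1 lower (2.50%), against 5.98% and 7.10% over all genes. PPP1R15A (GADD34), which brings a phosphatase to the initiation factor eIF2, went from 36.2 and 38.7 to 87.8 and 91.4 RPKM, a log2 fold change of 1.24 ± 0.11 (SE; limma adjusted p = 1.66e-04). The smaller calls of PPP1R15B (0.34), EIF5 (0.45) and EIF4EBP2 (-0.45) were lost without merbarone library 1 (limma adjusted p = 0.129 to 0.419) or 2 (0.147 to 0.214). Of 26 genes of mRNA turnover (median 0.05) 3 were higher (11.5%) and 1 lower (3.85%). BTG2, ZFP36L1 (38.1 and 38.3 to 83.0 and 83.2 RPKM) and ZFP36 (0.45), which recruit deadenylases to mRNA, rose, and TOB2, another deadenylase adaptor, fell by 0.37. ZFP36 and TOB2 lost their calls without merbarone library 1 (limma adjusted p = 0.278 and 0.0995), TOB2 also without 2 (0.316). Of 36 autophagy and lysosome genes (median -0.07) 2 were higher and 2 lower, 5.56% each and near the shares over all genes. VMP1, which acts in autophagosome formation, went from 1.04 and 0.952 to 2.73 and 2.52 RPKM, a log2 fold change of 0.86 ± 0.07 (limma adjusted p = 1.20e-04), and it overlaps another gene.

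Of 27 genes of RNA polymerase II pausing and elongation 3 were higher (11.1%, against 5.98% over all genes) and 0 lower (median -0.03). POLR2A, the largest subunit of the polymerase (ENSG00000181222; chromosome 17, 7387685 to 7417933, plus strand), went from 6.26 and 5.21 to 9.45 and 9.51 RPKM, a log2 fold change of 0.64 ± 0.10 (SE; limma adjusted p = 0.00542). CCNT1, the cyclin of the elongation kinase P-TEFb, and AFF4, the scaffold of the super elongation complex, rose by 0.40 and 0.39, calls lost without merbarone library 1, which left a count of 1, against 6 higher and 4 lower without untreated library 1. Splicing factors gave 1 of 52 higher (1.92%) and 4 lower (7.69%), against 5.98% and 7.10% over all genes. PRPF8 rose (0.37), and CLK2 and the core proteins SNRPD1, SNRPD2 and SNRPD3 fell (-0.31 to -0.42). All these splicing calls were lost without merbarone library 1 or 2. Of 12 histone genes 1 was higher and 2 lower (median -0.21), among them H2AZ1 (75.7 and 67.6 to 44 and 56.9 RPKM), lost without merbarone library 1 (limma adjusted p = 0.521). Most histone RNAs lack a poly(A) tail, which mRNA libraries select.

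Metabolic lists stood near or below the background. Cholesterol synthesis had 0 calls among 23 genes (median -0.11), with 2 higher and 1 lower of 25 on reads. INSIG1, a sensor of sterols in this list, measured 34.7 and 29.9 RPKM untreated and 25.5 and 28.3 RPKM treated. Of 13 fatty acid genes FASN, the fatty acid synthase, rose from 14.2 and 15.8 to 25.0 and 27 RPKM (0.75 ± 0.11; limma adjusted p = 0.00312), while SCD, the desaturase, measured 110 and 103 against 117 and 116 RPKM and was not called. In the glycolysis and hypoxia list VEGFA, the vessel growth factor, rose from 10.1 and 10.9 to 23.7 and 22.8 RPKM and ADM, adrenomedullin, fell from 15.8 and 18.9 to 9.70 and 9.45 RPKM, 1 higher and 1 lower of 24 (median 0.02). Both are known targets of HIF. VEGFA is also on the amino-acid list. G0S2, an inhibitor of fat breakdown (12 and 14 to 6.03 and 7.75 RPKM), and PPP1R3C, which promotes glycogen synthesis (22.5 and 25.0 to 12.7 and 13.5 RPKM), were 2 of the 15 largest falls.

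All 11 tubulins tested had negative estimates, against 3995 of the 6620 genes tested (median -0.34 against -0.05), and 3 were called lower, the alpha-tubulins TUBA1A (96.3 and 97.4 to 66.1 and 68.3 RPKM), TUBA1B (205 and 201 to 138 and 152 RPKM) and TUBA1C (3.45 and 3.60 to 2.22 and 2.55 RPKM). These paralogs share much of their coding sequence, so the split of reads among them is uncertain. The count was 7, 5, 0 and 1 without untreated library 1, untreated library 2, merbarone library 1 and merbarone library 2. Of 31 genes of the actin cytoskeleton 4 were higher and 3 lower (median 0.02). Non-muscle myosin MYH9 (19.3 and 20.3 to 33.0 and 32.8 RPKM), the filamin FLNA (112 and 124 to 163 and 165 RPKM) and ACTN1 (0.48), an actinin, rose. TMSB10, a thymosin that binds actin monomers and one of the most abundant RNAs (1545 and 1943 to 1101 and 1198 RPKM), and MYL6, a myosin light chain (238 and 289 to 171 and 202 RPKM), fell, as did SRF. In the adhesion list of 24 genes TLN1, talin, rose by 0.56 and SDC1, a syndecan, fell by 0.51. Of the called genes named in this paragraph only MYH9 kept its call without merbarone library 1 (limma adjusted p of the others 0.0677 to 0.431), and FLNA, ACTN1, MYL6, SRF, TUBA1A and TUBA1B were also lost without merbarone library 2 (0.0613 to 0.210).

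The remaining genes of the 15 largest falls were varied. TNFRSF25, a death receptor, fell from 2.59 and 2.05 to 0.883 and 0.912 RPKM and overlaps another gene. PTTG2, an intronless copy of securin, fell from 23.7 and 20.3 to 12.6 and 12.3 RPKM, and reads may be shared with PTTG1. ENSG00000235878, which has no symbol here, fell from 4.39 and 3.52 to 1.65 and 1.67 RPKM. ANKRD30BL went from 4.74 and 5.48 to 3.45 and 1.79 RPKM (limma adjusted p = 0.0248), with the lower value in merbarone library 2. Of the 5 most abundant RNAs called lower, 4 were named above (TMSB10, MT-ND5, MT-ND6 and MYL6), and the fifth was MT2A, a metallothionein that binds zinc and copper, from 451 and 546 to 315 and 345 RPKM, a call lost without merbarone library 1 (limma adjusted p = 0.152).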

How the data were processed

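RNA-seq (TruSeq Stranded mRNA libraries) of hTERT RPE-1 cells was used, 2 untreated and 2 merbarone libraries. The authors deposited 1 table of RPKM per library, with 20327 genes, per the file headers. The submitters' processing notes name Bowtie 1.2.0, deepTools 2.4.1 and hg19/GRCh37, with no role or order, and 2 count tools. The length behind the deposited RPKM was within 1% of the genomic span for 75.3% of genes and of the exon union for 1.6%. Symbols were found for 19637 genes.

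From the RPKM the following was computed. The main test was limma 3.58.1 (R 4.3.3; lmFit, eBayes with trend) on log2(RPKM + 1), without a block, for the 6620 genes averaging 1 RPKM or more, two-sided, with Benjamini-Hochberg adjustment and a threshold of 0.05. Fold changes on this scale understate the change of low genes. Whole reads were recovered for all 17680 genes above 0 in any of the 10 libraries of the series (tolerance 0.001). Those of the 4 libraries were tested with limma's voom (mean of at least 10 reads, TMM library sizes) as an alternative. Tables and plots used Python 3.11.15, NumPy 2.4.6, pandas 2.3.3 and matplotlib 3.10.9, and both tests were tested on simulated data.

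Named genes were the 15 largest rises and 15 largest falls outside the immediate-early and amino-acid lists with groups that do not overlap, up to 4 called members of each of 46 lists by smallest adjusted p (2 of those 2 lists, and the 2 most abundant members where fewer than 2 were called), TOP2A and TOP2B, and the 5 most abundant calls in each direction. Other called list members were added after their values were seen. Members and lists were chosen with earlier results of these data known. Promoters are from RefSeq, which had entries for 5226 of the 6620 tested genes, and 6 were printed, for named called genes with a motif of 8 letters. The list of snoRNA host transcripts was not analysed here. Alternatives covered pseudocount, filters, scaling, trend, GC content, transcript length, a block for the replicate number, a fit of all 10 libraries and leaving out each library. Values of some members of these lists are not reported here.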

Additional observations from a re-analysis of the deposited data

How the results depend on the processing

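Main calls numbered 866 (396 higher, 470 lower). Leaving out each library in turn gave 328 to 2464 calls, 207 to 893 higher and 121 to 1571 lower. Other settings gave 53 (48 higher, 5 lower) with no filter on low RPKM, 397 (131 and 266) at a mean of at least 5 RPKM, 2079 (1187 and 892) with voom on recovered reads and 1787 (864 and 923) with GC correction. A pseudocount of 0.1 with a minimum of 0.1 RPKM gave 794 (491 and 303). The length correction, chosen after seeing the data, gave 972 (546 and 426). Higher calls were 45.7% of calls as reported, 52.4% with median scaling, 53.8% with quantile normalization and 61.8% with the lower minimum. The 2 groups share replicate numbers, but the labels do not say that these pair the libraries, and the deviations of same-numbered libraries correlated at 0.3 over 2 pairs. With the replicate number as a block there were 2129 calls (813 higher, 1316 lower), and 2058 (945 and 1113) with GC correction as well. Of the 141 called genes that the naming rule chose, 141 kept the call under the block, 138 on reads, 127 with quantile normalization, 96 with all 10 libraries and 18 with no filter. VIM, not called as reported (-0.14, limma adjusted p = 0.418), was 0.23 (0.0142) after quantile normalization, the only reversed direction past the threshold among these results. The causes of these differences were not tested.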

Other observations

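Several families were picked after values were seen, so their counts are descriptions. Genes with ZNF symbols are mostly zinc finger genes, many coding for repressors that bind DNA, but include the antisense RNA ZNF436-AS1. They were higher in 33 of 142 tested (23.2%) and lower in 3 (2.11%), against 5.98% and 7.10% over all genes (median 0.12). On reads 99 of 453 were higher and 9 lower, against 8.83% and 6.64% over all genes. The count of rises was 55, 42, 5 and 16 without untreated library 1, untreated library 2, merbarone library 1 and merbarone library 2, and many members lie in clusters of similar genes. Genes derived from transposases were higher in 5 of 6 (median 0.58), a count of 5 without any 1 library: PGBD4 rose by 0.95, TIGD1 by 0.82, TIGD2 by 0.60, TIGD6 by 0.55 and TIGD7 by 0.55. Long cytoskeletal genes were higher in 7 of 9 (median 0.47), with 4 and 3 without merbarone library 1 and 2. Calcium-binding S100A genes were lower in 5 of 8 (median -0.41), 1 after the length correction and 2 without merbarone library 1 or 2, in a family with a median transcript of 748 bp.

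Other called genes, also chosen after their values were seen, included regulators of metals, signalling and the cell cycle. SLC30A1, a zinc exporter, rose by 1.15, SERTAD1 by 1.29, TSC22D3, a glucocorticoid target, by 1.04, PCK2 by 1.17, SIK1 by 0.81 and SOCS3, a cytokine signalling inhibitor, by 0.71. WEE1, the kinase that restrains CDK1, fell by 0.74, KPNA2, an importin, by 0.64, HMGA2, a chromatin protein, by 0.63 and LMNB1, lamin B1, by 0.52. Each of these 10 calls held without any 1 library in limma, except that HMGA2 was under 1 RPKM and not tested without untreated library 1.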
